A study of Mus musculus with 12 samples.

Results

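The genes described here encode the machinery that carries proteins made in the cytosol into mitochondria, and their RNA was compared between LCHADD and WT mouse heart ventricles. They were chosen by name: protein-coding genes whose symbols begin with Timm or Tomm and a number, leaving out Timmdc1, plus 12 genes of the import motor, presequence processing, outer membrane sorting and the disulfide relay (Pam16, Dnajc15, Dnajc19, Grpel1, Grpel2, Pmpca, Pmpcb, Samm50, Mtx1, Mtx2, Chchd4 and Gfer). The table held 37 such genes, and 34 of them (22 Timm or Tomm genes and the other 12) reached 10 normalised reads in at least 3 of 12 libraries, out of 13865 genes that did so. The 3 that did not were Tomm20l with 5 reads over all 12 libraries, and Timm8a2 and Tomm6, which were listed at 0. In the annotation used, exons of Tomm6 overlap those of Gm21981 on the same strand and of Usp49 and Tomm6os on the other, so its 0 may not measure its level.

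The LCHADD animals are, by the series title, a mouse model of deficiency in long-chain 3-hydroxyacyl-CoA dehydrogenase, an enzyme of mitochondrial fatty acid oxidation. The libraries were 3 of LCHADD females, 3 of LCHADD males, 3 of WT females and 3 of WT males, all from untreated ventricle tissue. The labels give neither the allele behind the LCHADD genotype nor strain or age. They also do not say whether replicates are separate animals, so p-values measure the spread between these samples.

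Most mitochondrial proteins are encoded in the nucleus and imported as precursors. The TOM complex is the common entry gate of the outer membrane, from which precursors pass to the SAM complex for β-barrel proteins, to the disulfide relay for cysteine-rich proteins of the intermembrane space, to the small TIM chaperones and the TIM22 complex for inner membrane carriers, or to the TIM23 complex and its Hsp70 motor for proteins with a cleavable presequence. Heart muscle is rich in mitochondria, and import into them depends on ATP and on the potential across the inner membrane.

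In the mean of both sexes, 20 of the 34 genes passed the test between LCHADD and WT, 18 of them higher in LCHADD and 2 lower. A gene passed when its limma p, adjusted by Benjamini-Hochberg over the 13865 genes, was under 0.05. By the same test 40.8% of all tested genes passed, 20.3% higher and 20.6% lower, so among the import genes the share that passed was 58.8% and the share that passed as higher was 52.9%. Their median log2 change, LCHADD minus WT, was 0.20, and it was -0.0019 over all tested genes, and 25 of the 34 changes were positive, beside 49.8% of all tested genes. Changes ran from -0.31 for Tomm40l to 0.81 for Grpel2, and 5 genes went past 1.5-fold (Grpel2, Timm10, Tomm5, Chchd4 and Timm8a1), beside 16.9% of all tested genes. The 6 LCHADD and 6 WT libraries did not overlap for 11 of the 34 genes, 10 of them higher in LCHADD, while over all tested genes 19.7% did not overlap, 9.82% with LCHADD higher and 9.91% with LCHADD lower.

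**Figure D1:**
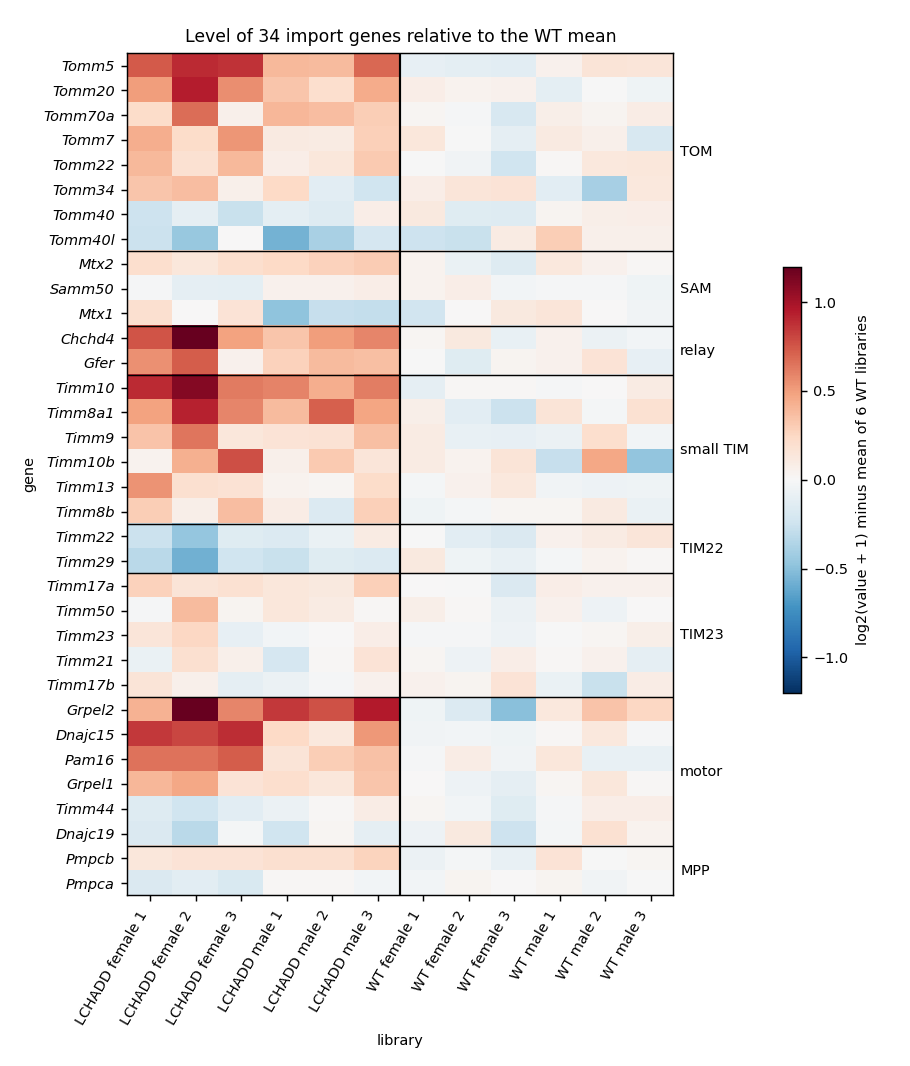
Level of each of the 34 import genes in every library as log2 of the normalised reads plus 1, relative to the mean of the 6 WT libraries, with genes grouped by role in the rows and LCHADD libraries left of WT libraries. Rows such as Tomm5, Timm10, Chchd4 and Grpel2 are above the WT mean in all 6 LCHADD libraries, and the row of Timm29 is below it in all 6.

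Sequencing depth was 15613668 to 23174936 reads per library. Reads of genes on the mitochondrial chromosome made up 31.0% to 37.9% of reads in LCHADD libraries and 27.5% to 32.7% in WT libraries. Relative to the WT mean, the median import gene lay at 0.25, 0.21 and 0.16 (log2) in LCHADD females and 0.12, 0.11 and 0.27 in LCHADD males, against -0.08 to 0.05 in the WT libraries, so all 6 LCHADD libraries lay above all 6 WT libraries. LCHADD female 2 was the highest of the 12 libraries for 14 of the 34 genes, and WT female 3 was the lowest for 13. LCHADD female 2 also had the lowest median rank correlation with the other libraries of its group over all tested genes (0.981).

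Ventricle marker genes moved too, and bulk RNA cannot tell fewer cells of a type from less RNA per cell. Summed cardiomyocyte markers held 492550 to 822405 normalised reads in LCHADD libraries and 833064 to 900942 in WT libraries, and 5 of the 8 markers fell in the mean of both sexes. Of the markers of other cells, 6 of 6 of fibroblasts, 4 of 6 of endothelium, 4 of 5 of mural cells and 5 of 5 of red cells fell. By the same test 20.6% of all tested genes fell. Summed levels were 6498 to 8503 in LCHADD and 9850 to 11392 in WT for fibroblasts, 7773 to 8939 in LCHADD and 9733 to 10856 in WT for endothelium, 6846 to 11306 in LCHADD and 9594 to 11553 in WT for mural cells, and 1913 to 4486 in LCHADD and 6969 to 12553 in WT for red cells. None of the 6 macrophage markers (1421 to 2055 reads in LCHADD, 1447 to 1974 in WT) or the 2 tested atrial markers (130 to 285 in LCHADD, 175 to 272 in WT) passed in the mean of both sexes. The skeletal muscle marker Myh4 was at 0 in all libraries, and Acta1, which the heart also expresses, rose (5000 to 13558 reads in LCHADD, 1408 to 5755 in WT). No adipocyte marker reached the filter. The part of these shifts in the results on import genes was not tested.

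The TOM complex receives nearly all precursors, and 5 of the 8 genes named Tomm rose in LCHADD ventricles (Tomm5, Tomm20, Tomm70a, Tomm22 and Tomm7) while Tomm40l fell. Counts by role, here and below, stand beside 40.8% of all tested genes that passed, 20.3% higher and 20.6% lower. Tomm5 (ENSMUSG00000078713), a small subunit that steadies the pore, had 2514, 2808 and 2754 normalised reads in LCHADD females and 1974, 1966 and 2428 in LCHADD males, against 1409, 1389 and 1380 in WT females and 1561, 1677 and 1665 in WT males. All LCHADD libraries lay above all WT libraries, females further than males. Its log2 change was 0.66 ± 0.06 (SE; limma adjusted p = 7.28e-07), with 0.95 in females (adjusted p = 1.13e-06) and 0.37 in males (adjusted p = 0.00781). Tomm20 (ENSMUSG00000093904), the receptor for presequences, had 1776, 2421 and 1854 normalised reads in LCHADD females and 1584, 1448 and 1707 in LCHADD males, against 1330, 1296 and 1299 in WT females and 1159, 1249 and 1212 in WT males. Again no LCHADD library reached down to the WT range, and LCHADD female 2 was the highest. The log2 change of Tomm20 was 0.50 ± 0.07 (SE; limma adjusted p = 6.46e-05).

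Tomm70a (ENSMUSG00000022752) is the receptor for carrier precursors handed over by Hsp70 and Hsp90. It had 1732, 2366 and 1545 normalised reads in LCHADD females and 1956, 1920 and 1820 in LCHADD males, against 1502, 1464 and 1294 in WT females and 1552, 1519 and 1582 in WT males. The groups did not overlap within either sex, although LCHADD female 3 lay below some WT males, and LCHADD female 2 stood above all others. Its log2 change was 0.34 ± 0.08 (SE; limma adjusted p = 0.0047). Between the female groups, in the fit of all 4 groups, Tomm70a changed by 0.38 ± 0.12 (SE; limma adjusted p = 0.0206). Without LCHADD female 2 this was 0.21 (adjusted p = 0.0576), without WT female 3 the adjusted p was 0.0888, and with the female groups alone in the fit it was 0.0948. Exons of Tomm70a overlap those of Nit2 on the opposite strand.

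Tomm22, the central receptor, averaged 1423 ± 133 normalised reads in LCHADD and 1198 ± 111 in WT (SD, n = 6 libraries each), a log2 change of 0.25 ± 0.06 (SE; limma adjusted p = 0.00626). Tomm7, another small subunit, changed by 0.28 ± 0.07 (SE; limma adjusted p = 0.00752). In both genes the female groups stood apart and the male groups overlapped. Tomm40l, a paralogue of the pore protein, fell by 0.31 ± 0.10 (SE; limma adjusted p = 0.0249), with -0.09 in females and -0.52 in males. That call was lost on leaving out LCHADD male 1, WT female 3 or WT male 1, with an adjusted p of up to 0.0711, and was 0.113 without both WT female 3 and LCHADD female 2.

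The pore gene itself, Tomm40 (ENSMUSG00000002984), had 887, 977 and 874 normalised reads in LCHADD females and 971, 943 and 1112 in LCHADD males, against 1141, 949 and 947 in WT females and 1077, 1106 and 1110 in WT males. The ranges overlapped, and its log2 change of -0.14 ± 0.06 (SE; limma adjusted p = 0.106) did not pass. Without LCHADD female 2 its adjusted p was 0.0467, and without LCHADD male 3 it was 0.0489. Tomm34, a cytosolic cochaperone of precursors, had 326, 334 and 269 normalised reads in LCHADD females and 304, 236 and 218 in LCHADD males, against 272, 286 and 290 in WT females and 237, 196 and 281 in WT males. It too overlapped between genotypes, with a log2 change of 0.11 ± 0.10 (SE; limma adjusted p = 0.445). Set on exon length, the small subunit Tomm5 had more normalised reads per kb than the other tested Tomm genes. Per kb of exon, Tomm5 had 2773 in LCHADD and 1744 in WT, beside 862 in LCHADD and 726 in WT for Tomm22. Tomm7 had 863 in LCHADD and 709 in WT, Tomm20 366 in LCHADD and 256 in WT, and Tomm40 213 in LCHADD and 234 in WT. The length takes in every annotated exon of a gene, so genes with long alternative exons may be understated. Tomm6 was listed at 0 and could not be placed.

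**Figure D2:**
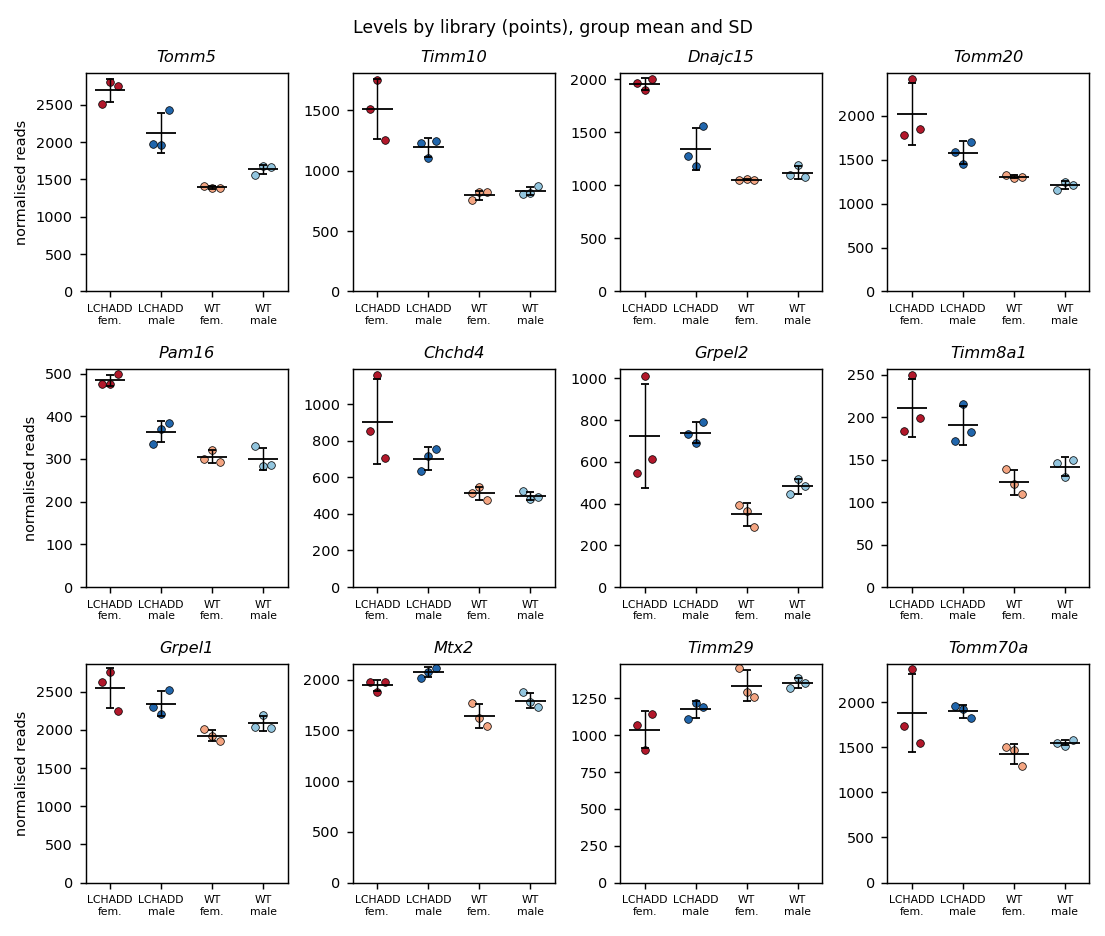
Normalised reads in each library for the 12 import genes with the smallest adjusted p in the mean of both sexes, with LCHADD groups left of WT groups, points for libraries, lines for group means and bars for the SD. For Tomm5 the LCHADD libraries lie between 1966 and 2808 and the WT libraries between 1380 and 1677, and for Timm29 the LCHADD libraries lie between 898 and 1217 and the WT libraries between 1259 and 1454.

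Of the sorting and assembly machinery, which inserts β-barrel proteins into the outer membrane, 1 of 3 genes passed. Mtx2 (ENSMUSG00000027099), a metaxin, had 1975, 1880 and 1977 normalised reads in LCHADD females and 2022, 2079 and 2120 in LCHADD males, against 1772, 1626 and 1540 in WT females and 1876, 1776 and 1728 in WT males. All LCHADD libraries lay above all WT libraries, although LCHADD female 2 exceeded WT male 1 by only a few reads. Its log2 change was 0.23 ± 0.05 (SE; limma adjusted p = 0.00202). Samm50 (ENSMUSG00000022437), the core barrel of the complex, had 3476, 3259 and 3230 normalised reads in LCHADD females and 3632, 3641 and 3703 in LCHADD males, against 3597, 3690 and 3416 in WT females and 3464, 3465 and 3388 in WT males. The genotypes overlapped, and the log2 change of Samm50 was -0.01 ± 0.04 (SE; limma adjusted p = 0.918). This mean joins opposite signs, -0.10 in females (adjusted p = 0.215) and 0.09 in males (adjusted p = 0.355). LCHADD males lay above WT males, and the adjusted p for the difference between the sexes was 0.487. Mtx1 (ENSMUSG00000064068), the other metaxin, had 197, 173 and 193 normalised reads in LCHADD females and 123, 142 and 141 in LCHADD males, against 147, 173 and 187 in WT females and 190, 173 and 168 in WT males. Here LCHADD males lay below WT males while the females overlapped, and the change was 0.16 in females (adjusted p = 0.372) and -0.38 in males (adjusted p = 0.0536), with an adjusted p of 0.342 for the difference between the sexes. With the male groups alone in the fit, the limma adjusted p of Mtx1 in males was 0.0442. Exons of Mtx1 overlap Thbs3 and Gm43737 on the opposite strand, and those of Samm50 overlap Gm49513 on the same strand.

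Both genes of the disulfide relay rose. Chchd4 (ENSMUSG00000034203), the oxidoreductase that traps cysteine-rich precursors, had 851, 1160 and 705 normalised reads in LCHADD females and 636, 716 and 757 in LCHADD males, against 513, 549 and 476 in WT females and 524, 481 and 493 in WT males. LCHADD and WT libraries did not overlap, and LCHADD female 2 was far above the other libraries. The log2 change of Chchd4 was 0.64 ± 0.10 (SE; limma adjusted p = 0.000111), with 0.79 in females (adjusted p = 0.000508) and 0.49 in males (adjusted p = 0.0263). Gfer, the sulfhydryl oxidase that reoxidises Chchd4, averaged 262 ± 42.4 normalised reads in LCHADD and 198 ± 15.2 in WT (SD, n = 6 libraries each). Its log2 change was 0.39 ± 0.10 (SE; limma adjusted p = 0.0077).

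The small TIM chaperones ferry hydrophobic precursors across the intermembrane space, and 4 of 6 rose. Timm10 (ENSMUSG00000027076), partner of Timm9 in the main carrier chaperone, had 1512, 1753 and 1256 normalised reads in LCHADD females and 1228, 1101 and 1246 in LCHADD males, against 755, 819 and 820 in WT females and 806, 816 and 869 in WT males. Every LCHADD library exceeded every WT library. Its log2 change of 0.71 ± 0.07 (SE; limma adjusted p = 2.57e-06) comprised 0.90 in females (adjusted p = 1.25e-05) and 0.52 in males (adjusted p = 0.00346). Timm8a1 (ENSMUSG00000048007), partner of Timm13 in the other small chaperone, had 184, 250 and 199 normalised reads in LCHADD females and 172, 216 and 183 in LCHADD males, against 139, 121 and 110 in WT females and 146, 129 and 150 in WT males. Its genotypes did not overlap either, and its log2 change was 0.59 ± 0.10 (SE; limma adjusted p = 0.000356). A close copy of this gene, Timm8a2, was listed at 0, so reads shared between them may have been split or dropped by the counting.

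Timm9 changed by 0.30 ± 0.09 (SE; limma adjusted p = 0.0176) and Timm13 by 0.20 ± 0.07 (SE; limma adjusted p = 0.031). For Timm9, 3 of the 6 LCHADD libraries lay above the highest WT library, and the call was lost when WT female 3 and LCHADD female 2 were both left out (adjusted p = 0.0646). The Timm13 call was lost in 8 of 22 alternatives, among them leaving out LCHADD female 1, LCHADD male 3, WT female 1, WT female 2 or any WT male, with an adjusted p of up to 0.0793. Timm8b (ENSMUSG00000039016), a paralogue of Timm8a1, had 1283, 1101 and 1355 normalised reads in LCHADD females and 1111, 935 and 1276 in LCHADD males, against 1012, 1029 and 1065 in WT females and 1063, 1127 and 991 in WT males. Its females stood apart and its males overlapped, and the log2 change of 0.16 ± 0.08 (SE; limma adjusted p = 0.109) did not pass. Without LCHADD female 2 its adjusted p was 0.0242, and without LCHADD male 2 it was 0.0236. Timm10b (ENSMUSG00000089847), the small TIM bound to the TIM22 complex, had 33.9, 44.7 and 57 normalised reads in LCHADD females and 34.4, 41.2 and 36.4 in LCHADD males, against 35.2, 33.8 and 36.8 in WT females and 26.9, 45.6 and 23.4 in WT males. At this low level the genotypes overlapped, with a log2 change of 0.30 ± 0.19 (SE; limma adjusted p = 0.225). Per kb of annotated exon, Timm8b had the most normalised reads of all 34 genes in WT (2272 in LCHADD and 2023 in WT) and Timm10b the fewest (11.5 in LCHADD and 9.38 in WT). Exons of Timm8b overlap Nkapd1, those of Timm9 overlap Tomm20l, and those of Timm10b overlap Arfip2, all on the opposite strand.

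The TIM22 complex, which inserts carriers into the inner membrane, was read from the 2 genes Timm29 and Timm22, of which Timm29 fell. Agk, a further subunit, is given with the other lists. Timm29 (ENSMUSG00000048429), a metazoan subunit of the complex, had 1073, 898 and 1141 normalised reads in LCHADD females and 1113, 1217 and 1195 in LCHADD males, against 1454, 1295 and 1259 in WT females and 1320, 1386 and 1354 in WT males. All LCHADD libraries lay below all WT libraries, and LCHADD female 2 was the lowest. Its log2 change was -0.29 ± 0.06 (SE; limma adjusted p = 0.00233), with -0.37 in females (adjusted p = 0.00565) and -0.20 in males (adjusted p = 0.146). With the male groups alone in the fit, the limma adjusted p of Timm29 in males was 0.0375. Timm22 (ENSMUSG00000020843), the channel, had 455, 395 and 492 normalised reads in LCHADD females and 486, 515 and 585 in LCHADD males, against 545, 499 and 484 in WT females and 567, 584 and 605 in WT males. The ranges overlapped, and its log2 change of -0.17 ± 0.07 (SE; limma adjusted p = 0.0684) did not pass. Its adjusted p was 0.0281 without LCHADD female 3 and 0.0344 without LCHADD male 3. Exons of Timm29 overlap Yipf2 on the opposite strand.

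In the TIM23 complex, the inner membrane gate for presequence proteins, 1 of 5 genes passed, beside 40.8% of all tested genes. Timm17a, a subunit that lines the gate, averaged 2259 ± 116 normalised reads in LCHADD and 1977 ± 119.0 in WT (SD, n = 6 libraries each). Its genotypes did not overlap, and its log2 change was 0.19 ± 0.05 (SE; limma adjusted p = 0.00776). Timm23 (ENSMUSG00000013701), the core subunit, had 3138, 3376 and 2647 normalised reads in LCHADD females and 2767, 2844 and 2985 in LCHADD males, against 2805, 2801 and 2711 in WT females and 2829, 2885 and 2978 in WT males. The ranges overlapped, with a log2 change of 0.06 ± 0.06 (SE; limma adjusted p = 0.444). Timm50 (ENSMUSG00000003438), the presequence receptor, had 725, 951 and 748 normalised reads in LCHADD females and 801, 782 and 739 in LCHADD males, against 765, 735 and 694 in WT females and 755, 702 and 731 in WT males. LCHADD female 2 was the highest and the rest overlapped, with a log2 change of 0.11 ± 0.07 (SE; limma adjusted p = 0.222). Timm21, which links TIM23 to TOM, and Timm17b, the paralogue of Timm17a, had log2 changes of 0.02 (adjusted p = 0.814) and 0.01 (adjusted p = 0.93).

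The import motor pulls precursors into the matrix with mitochondrial Hsp70, and 4 of its 6 genes rose. Dnajc15 (ENSMUSG00000022013), a J protein that stimulates Hsp70, had 1959, 1894 and 2004 normalised reads in LCHADD females and 1280, 1182 and 1561 in LCHADD males, against 1051, 1062 and 1049 in WT females and 1093, 1189 and 1074 in WT males. LCHADD females lay far above every other library, while LCHADD male 2 lay within the WT male range. The log2 change of Dnajc15 was 0.57 ± 0.06 (SE; limma adjusted p = 6.18e-06), with 0.89 in females (adjusted p = 4.09e-06) and 0.25 in males (adjusted p = 0.0724). With the male groups alone in the fit, its limma adjusted p in males was 0.047. Dnajc19 (ENSMUSG00000027679), its paralogue in the motor, had 620, 558 and 689 normalised reads in LCHADD females and 593, 712 and 652 in LCHADD males, against 670, 760 and 589 in WT females and 690, 794 and 720 in WT males. These ranges overlapped, and the log2 change of -0.14 ± 0.08 (SE; limma adjusted p = 0.165) did not pass. Exons of Dnajc19 overlap Fxr1 on the opposite strand.

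Pam16 (ENSMUSG00000014301), the J-like regulator of the motor, had 476, 476 and 500 normalised reads in LCHADD females and 336, 371 and 385 in LCHADD males, against 300, 322 and 294 in WT females and 331, 284 and 285 in WT males. The lowest LCHADD library exceeded the highest WT library by a few reads, and the females stood well apart. Its log2 change was 0.47 ± 0.07 (SE; limma adjusted p = 6.66e-05). Grpel1 (ENSMUSG00000029198), the nucleotide exchange factor of mitochondrial Hsp70, had 2633, 2756 and 2248 normalised reads in LCHADD females and 2303, 2205 and 2520 in LCHADD males, against 2005, 1913 and 1857 in WT females and 2032, 2201 and 2020 in WT males. Its lowest LCHADD library, male 2, lay just above WT male 2, and its log2 change was 0.28 ± 0.06 (SE; limma adjusted p = 0.00139). Grpel2 (ENSMUSG00000024580), the second exchange factor, had 546, 1010 and 613 normalised reads in LCHADD females and 735, 692 and 791 in LCHADD males, against 394, 363 and 288 in WT females and 445, 517 and 484 in WT males. No LCHADD library overlapped WT, LCHADD female 2 was the highest, and the log2 change of 0.81 ± 0.13 (SE; limma adjusted p = 0.000121) was the largest of the 34 genes. Timm44 (ENSMUSG00000002949), which tethers Hsp70 to the gate, had 1423, 1341 and 1449 normalised reads in LCHADD females and 1502, 1593 and 1682 in LCHADD males, against 1608, 1549 and 1432 in WT females and 1565, 1669 and 1667 in WT males. The genotypes overlapped, with a log2 change of -0.08 ± 0.05 (SE; limma adjusted p = 0.235). Exons of Pam16 overlap Glis2 and those of Grpel1 overlap Tada2b, on the opposite strand.

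The processing peptidase cuts presequences off in the matrix, and 1 of the genes for its 2 subunits passed. Pmpcb (ENSMUSG00000029017), the catalytic subunit, had 3365, 3422 and 3422 normalised reads in LCHADD females and 3487, 3487 and 3669 in LCHADD males, against 2914, 3010 and 2866 in WT females and 3431, 3042 and 3116 in WT males. Within each sex LCHADD lay above WT, and the log2 change was 0.18 ± 0.05 (SE; limma adjusted p = 0.00477). Pmpca (ENSMUSG00000026926), the subunit that holds the substrate, had 2323, 2389 and 2302 normalised reads in LCHADD females and 2633, 2646 and 2560 in LCHADD males, against 2560, 2684 and 2632 in WT females and 2674, 2536 and 2611 in WT males. LCHADD females lay below WT females and the males overlapped, and its log2 change of -0.08 ± 0.04 (SE; limma adjusted p = 0.138) did not pass. Exons of Pmpca overlap Inpp5e on the opposite strand.

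In females 19 of the 34 genes passed between LCHADD and WT, 17 higher and 2 lower (Timm29 and Pmpca), beside 33.8% of all tested genes, 16.7% higher and 17.2% lower. In males 6 passed, 5 higher and 1 lower, beside 15.5% of all tested genes, 7.71% higher and 7.77% lower. In this fit all 4 groups share 1 estimate of the spread, so the 2 counts depend on it. With only the 2 groups compared in the fit, 14 genes passed in females (24.8% of all tested genes) and 12 in males (24.1%). The median log2 change of the import genes was 0.26 in females and 0.13 in males, and over all tested genes it was -0.0035 in females and 0.00 in males. In the fit of all 4 groups, Tomm5, Timm10, Tomm20, Chchd4 and Grpel2 passed in both sexes, 5 of 34 genes beside 13.4% of all tested genes. A further 14 passed in females and not in males, beside 20.4% of all tested genes, and Tomm40l passed in males and not in females, beside 2.05%. The female groups did not overlap for 21 genes (19 higher), beside 44.5% of all tested genes (22.2% higher and 22.3% lower), and the male groups for 18 (15 higher), beside 38.9% (19.6% higher and 19.3% lower).

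Cell markers that passed between LCHADD and WT were counted in each sex too. Over all tested genes 17.2% fell and 16.7% rose in females, while 7.77% fell and 7.71% rose in males. Cardiomyocyte markers fell for 7 of 8 genes in females (median log2 change -0.50) and for 1 of 8 in males (-0.16), with summed levels of 492550 to 690897 in LCHADD females against 852724 to 900942 in WT females, and 709787 to 822405 in LCHADD males against 833064 to 886572 in WT males. Fibroblast markers fell for 6 of 6 genes in females (-0.56) and 2 of 6 in males (-0.26), and mural markers for 0 of 5 in females (-0.24) and 2 of 5 in males (-0.38). Endothelial markers fell for 3 of 6 in each sex and red cell markers for 5 of 5 in each sex. Of the macrophage markers, 2 of 6 rose in females (Cd68 at 0.66, adjusted p = 0.0232, and Adgre1 at 0.61, adjusted p = 0.0329) and 0 of 6 passed in males, with summed levels of 1628 to 2033 in LCHADD females against 1447 to 1734 in WT females and 1421 to 2055 in LCHADD males against 1698 to 1974 in WT males. Their part in the female and male results on import genes was not tested, nor was the difference of the markers between the sexes.

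The change had the same sign in both sexes for 29 of 34 import genes, beside 78.0% of all tested genes, and it was larger in size in females for 30 of 34, beside 65.7%. None of the 34 genes passed the test of the difference itself, the interaction of genotype and sex in limma, beside 0.00721% of all tested genes. The smallest adjusted p was 0.137, for Tomm5 and for Dnajc15. Unadjusted, 7 had p under 0.05, beside 9.83% of all tested genes. The quasi-likelihood test of edgeR called none either, and DESeq2 called 2, Dnajc15 (adjusted p = 0.00427) and Tomm5 (adjusted p = 0.00503), where it called 1.83% of all tested genes. Limma called the same 2 genes without LCHADD female 3, with 1.34% of all tested genes, and without LCHADD male 3, with 0.498%. Dnajc15 changed by 0.89 in females and 0.25 in males, and Tomm5 by 0.95 in females and 0.37 in males.

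Between the sexes in WT ventricles, none of the 34 import genes passed in limma, beside 0.245% of all tested genes (0.0938% higher and 0.151% lower in females), and 2 had an unadjusted p under 0.05, beside 7.35% of all tested genes, with none called by edgeR or DESeq2. Grpel2 had 394, 363 and 288 normalised reads in WT females against 445, 517 and 484 in WT males. The female and male WT libraries did not overlap in this gene. Its log2 difference, female minus male, was -0.48 (limma adjusted p = 0.524), and without LCHADD female 2 in the fit the adjusted p was 0.0412. Tomm5, the gene with the smallest adjusted p between genotypes among the 34, had 1409, 1389 and 1380 normalised reads in WT females against 1561, 1677 and 1665 in WT males, a log2 difference of -0.23 (limma adjusted p = 0.514).

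The male count of genes passing between LCHADD and WT moved most with the choice of libraries: 2 genes passed without WT male 3 (9.5% of all tested genes), 3 without LCHADD male 1 (9.5%), LCHADD male 3 (10.8%) or WT male 1 (9.61%), and 13 without LCHADD female 2 (23.8%). The share of all tested genes thus moved in the same direction. Tomm5 and Timm10 passed in males in all 23 alternatives, while the male calls of Tomm20, Chchd4, Grpel2 and Tomm40l were each lost on leaving out some male library. In females 12 of 19 calls held throughout. Those of Mtx2, Tomm70a, Pmpcb, Timm17a, Timm9 and Pmpca were lost without WT female 3, those of Tomm70a, Gfer and Timm9 without LCHADD female 2, and those of Mtx2, Gfer, Timm9 and Pmpca without WT female 2. Leaving out LCHADD female 1 lost Gfer, Timm9 and Pmpca, leaving out WT female 1 lost Pmpcb and Pmpca, and Pmpca was also lost without LCHADD female 3, without LCHADD male 1 or 2, without any WT male, with no filter and with the replicate block. With scaling by nuclear reads Pmpca was at -0.10 in females (adjusted p = 0.219). With the female groups alone in the fit, the calls of Mtx2, Gfer, Tomm70a, Timm9 and Pmpca were lost. With the male groups alone in the fit, Tomm70a, Mtx2, Timm8a1, Timm29, Mtx1 and Dnajc15 passed in males too. Their limma adjusted p ran from 0.00257 for Tomm70a to 0.047 for Dnajc15.

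**Figure D3:**
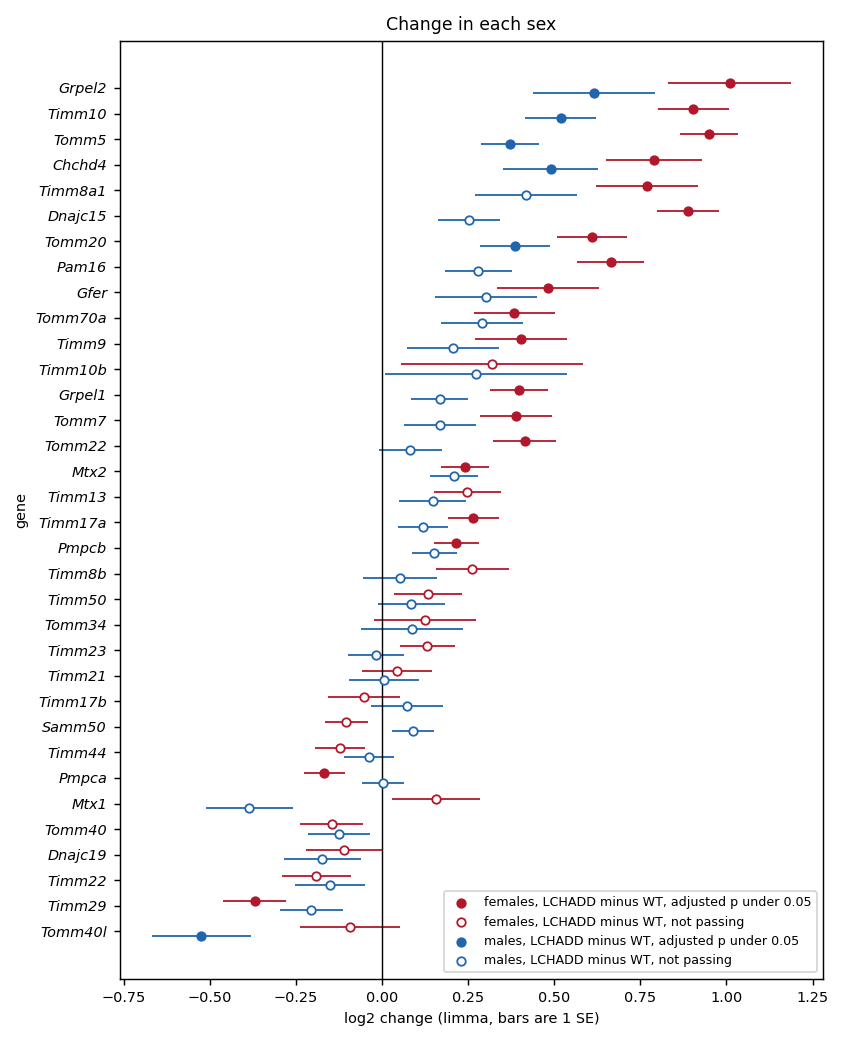
Log2 change, LCHADD minus WT, of the 34 import genes in females and in males, with 1 gene per row, bars for the standard error of the fit and filled points for genes that passed. For most genes with a positive change the female point lies to the right of the male point, with Tomm5 at 0.95 in females and 0.37 in males and Dnajc15 at 0.89 in females and 0.25 in males.

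Several import proteins come in related pairs, and 8 pairs were compared as the log2 ratio of their normalised reads within each library. Genotypes were permuted within sex, 2-sided, over 400 arrangements, so that the smallest p was 0.005, with adjustment over the 8 pairs. In 4 pairs the ratio differed between LCHADD and WT. The ratio of Dnajc15 to Dnajc19 was 3.16, 3.39 and 2.91 in LCHADD females and 2.16, 1.66 and 2.39 in LCHADD males, against 1.57, 1.4 and 1.78 in WT females and 1.58, 1.5 and 1.49 in WT males. Females stood well apart in this ratio, and its log2 difference was 0.71 (exact permutation p = 0.005, adjusted p = 0.0133). The ratio of Grpel1 to Grpel2 was 4.83, 2.73 and 3.67 in LCHADD females and 3.13, 3.19 and 3.19 in LCHADD males, against 5.08, 5.26 and 6.46 in WT females and 4.56, 4.26 and 4.17 in WT males. LCHADD lay below WT within each sex, with a log2 difference of -0.53 (exact permutation p = 0.005, adjusted p = 0.0133).

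Pmpca to Pmpcb had a ratio of 0.69, 0.698 and 0.673 in LCHADD females and 0.755, 0.759 and 0.698 in LCHADD males, against 0.878, 0.891 and 0.918 in WT females and 0.779, 0.834 and 0.838 in WT males. All LCHADD ratios lay below all WT ratios, and the log2 difference was -0.27 (exact permutation p = 0.005, adjusted p = 0.0133). The ratio of Timm8a1 to Timm8b was 0.143, 0.228 and 0.147 in LCHADD females and 0.155, 0.231 and 0.144 in LCHADD males, against 0.137, 0.117 and 0.103 in WT females and 0.138, 0.115 and 0.151 in WT males. Here LCHADD overlapped WT, and the log2 difference of 0.44 (exact permutation p = 0.015, adjusted p = 0.03) was lost in 8 alternatives, among them leaving out LCHADD female 2, LCHADD male 2, WT female 2, WT female 3, WT male 1 or WT male 2. The other 4 pairs did not pass. Mtx1 to Mtx2 differed by -0.34 (exact permutation p = 0.035, adjusted p = 0.056), with -0.09 in females and -0.59 in males, and it passed without WT female 1 (adjusted p = 0.0133). For Timm17a to Timm17b the difference was 0.18 (exact permutation p = 0.06, adjusted p = 0.08), and it passed without WT male 2 (adjusted p = 0.03). For Timm10 to Timm10b it was 0.42 (exact permutation p = 0.13, adjusted p = 0.149), and for Tomm40 to Tomm40l 0.17 (exact permutation p = 0.255, adjusted p = 0.255).

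**Figure D4:**
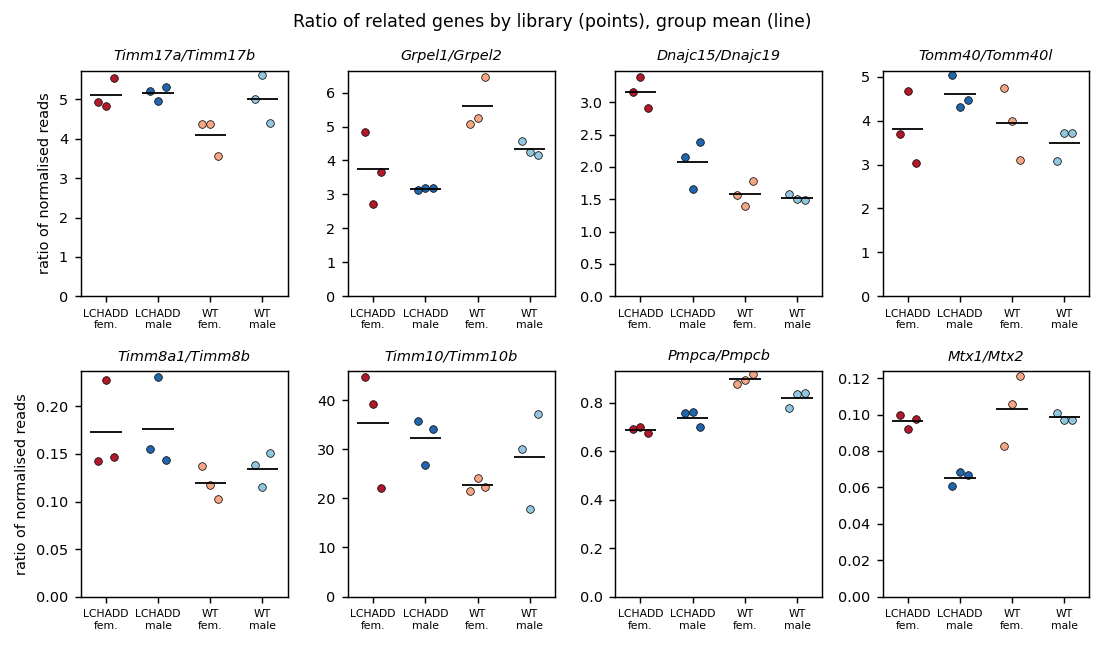
Ratio of normalised reads of the 2 genes of each related pair in every library, on axes that start at 0, with LCHADD groups left of WT groups and lines for group means. The Pmpca to Pmpcb ratios lie between 0.673 and 0.759 in LCHADD and between 0.779 and 0.918 in WT.

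Promoter sequence was read for 30 of the 34 genes, 250 bases before to 50 after the start, from RefSeq on build GRCm38.p6. Tomm40l, Grpel2, Timm21 and Tomm7 are not in that table. The 7-base motif CCGGAAG, the core bound by ETS factors such as GABP, was found on either strand in 13 of 30 import genes (43.3%), beside 19.2% of 10419 tested genes and 9.93% of 27025 genes in the table. It was in 6 of the 16 genes that rose (37.5%) and in 7 of the 14 others. The NRF1 core GCGCATGC was in Grpel1 and Timm13, 2 of 30 (6.67%), beside 5.77% of tested genes and 3.05% of all genes in the table. TGATGNAA, a composite of ATF4 and C/EBP, was in none of the 30, beside 2.76% of tested genes and 4.51% of all. TGACGTCA, the cyclic AMP response element, was also in none, beside 3.46% of tested genes and 2.03% of all. A match describes the letters and shows neither a bound site nor a cause.

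Bases upstream of the start are shown for 4 genes that rose and hold these motifs, in capitals, with CTTCCGG being CCGGAAG read on the other strand. Within the bases shown, Tomm22 holds a palindrome in which both orientations overlap, Tomm70a holds the motif at 2 places, and Grpel1 holds it with the NRF1 core. Matches past the start were counted but are not shown. Counted from the start, these lie at 13 and 16 in Timm10, where they overlap too, and at 5 in Tomm22. The positions are chr2:84826921-84827020 for Timm10, chr15:79670768-79670867 for Tomm22, chr16:57121614-57121713 for Tomm70a and chr5:36464935-36465184 for Grpel1, all on the plus strand of GRCm38.p6.
Timm10: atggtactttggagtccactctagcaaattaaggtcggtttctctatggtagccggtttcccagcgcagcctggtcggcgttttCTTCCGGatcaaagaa
Tomm22: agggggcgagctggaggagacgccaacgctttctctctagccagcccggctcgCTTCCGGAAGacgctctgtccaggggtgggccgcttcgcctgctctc
Tomm70a: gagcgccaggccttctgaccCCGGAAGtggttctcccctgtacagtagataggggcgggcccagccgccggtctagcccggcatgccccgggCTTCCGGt
Grpel1: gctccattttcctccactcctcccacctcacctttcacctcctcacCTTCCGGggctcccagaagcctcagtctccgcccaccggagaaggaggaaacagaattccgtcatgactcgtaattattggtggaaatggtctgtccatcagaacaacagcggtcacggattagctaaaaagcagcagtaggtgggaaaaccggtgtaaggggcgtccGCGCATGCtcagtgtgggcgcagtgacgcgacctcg

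Other genes of the pathway were read from lists, again in the mean of both sexes and with no test of a list as a whole. The count of each list stands beside 40.8% of all tested genes that passed, 20.3% higher and 20.6% lower. Of 15 further import genes, 6 rose and 2 fell, with a median log2 change of 0.17. Hspa9, the mitochondrial Hsp70 of the import motor, averaged 28330 normalised reads in LCHADD and 14620 in WT, a log2 change of 0.94 ± 0.09 (SE; adjusted p = 1.19e-06). Immp2l, an inner membrane peptidase, changed by 0.56 ± 0.09 (SE; adjusted p = 0.000234). Dnlz, a cochaperone that keeps Hspa9 soluble, changed by 0.34 ± 0.07 (SE; adjusted p = 0.00109). Agk, a lipid kinase and subunit of the TIM22 complex, rose, by 0.41 ± 0.09 (SE; adjusted p = 0.00149). Mtch2 and Pitrm1 rose as well, while Romo1 and Oxa1l fell. The most abundant that did not pass were Mtch1 (-0.03 ± 0.05 (SE; adjusted p = 0.679)) and Aifm1 (-0.06 ± 0.05 (SE; adjusted p = 0.344)).

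Among 9 cytosolic chaperones of precursors 4 rose and none fell in limma, with a median log2 change of 0.06. By the same test 20.3% of all tested genes rose and 20.6% fell. Hsp90ab1, a constitutive Hsp90, changed by 0.54 ± 0.06 (SE; adjusted p = 2.37e-06), the J protein Dnaja2 by 0.44 ± 0.06 (SE; adjusted p = 3.74e-05), the constitutive Hsp70 Hspa8 by 0.38 ± 0.06 (SE; adjusted p = 0.000144) and the inducible Hsp90aa1 by 0.81 ± 0.18 (SE; adjusted p = 0.00204). Bag6 (0.05 ± 0.05 (SE; adjusted p = 0.489)) and Sgta (0.06 ± 0.05 (SE; adjusted p = 0.366)) were the most abundant that did not pass. Of 9 genes of outer membrane quality control 2 rose and 1 fell, with a median of 0.04. Pink1, a kinase that healthy mitochondria import and degrade, changed by -0.78 ± 0.06 (SE; adjusted p = 6.66e-08) and averaged 7809 normalised reads in LCHADD and 13290 in WT. March5, an outer membrane ubiquitin ligase, changed by 0.41 ± 0.08 (SE; adjusted p = 0.000744), and Vcp, an unfoldase, by 0.19 ± 0.05 (SE; adjusted p = 0.0105). Ubqln4 (0.17 ± 0.08 (SE; adjusted p = 0.114)) and Atad1 (0.03 ± 0.05 (SE; adjusted p = 0.681)) did not pass.

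Cysteine-rich proteins taken up through the disulfide relay numbered 22, of which 9 rose and 2 fell, with a median log2 change of 0.11. Again 20.3% of all tested genes rose and 20.6% fell. Chchd6, a cristae organiser, changed by 1.18 ± 0.10 (SE; adjusted p = 2.73e-07). Chchd10, a protein of the intermembrane space, changed by 0.79 ± 0.07 (SE; adjusted p = 5.31e-07), Sod1, the copper-zinc superoxide dismutase, by 0.50 ± 0.06 (SE; adjusted p = 8.37e-06), and Chchd3, another cristae organiser, by 0.29 ± 0.04 (SE; adjusted p = 7.35e-05). Cox6b2 and Ndufb7 were the 2 that fell, and Uqcrh (0.02 ± 0.07 (SE; adjusted p = 0.822)) and Cox6b1 (0.03 ± 0.06 (SE; adjusted p = 0.767)) did not pass. Of 12 genes of mitochondrial proteins, listed as content genes, 4 rose and 2 fell, with a median of 0.01. Their median was -0.06 in females and 0.07 in males. RNA of these genes does not measure mitochondrial content. Phb2, a prohibitin, changed by 0.40 ± 0.05 (SE; adjusted p = 2.94e-05) and Vdac3, an outer membrane channel, by 0.37 ± 0.05 (SE; adjusted p = 7.59e-05). Slc25a4, the heart ADP/ATP carrier and a TIM22 substrate, changed by -0.36 ± 0.06 (SE; adjusted p = 0.000156) and Mdh2, malate dehydrogenase, by -0.19 ± 0.04 (SE; adjusted p = 0.00279). Cs, citrate synthase, had a log2 change of -0.00 ± 0.05 (SE; adjusted p = 0.952) and did not pass.

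**Figure D5:**
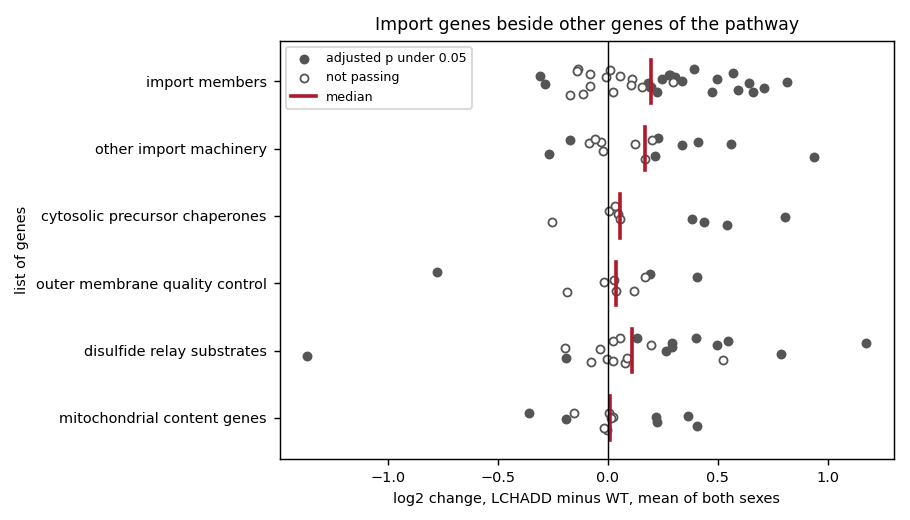
Log2 change, LCHADD minus WT in the mean of both sexes, of every tested gene of the import genes and of each other list, with filled points for genes that passed and a line at the median of each list. The median of the 34 import genes is 0.20, beside 0.17 for the 15 further import genes and 0.01 for the 12 content genes.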

How the data were processed

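RNA sequencing values of 12 mouse heart ventricle libraries were used, 3 in each of 4 groups, with genotype and sex taken from the labels. The values deposited by the authors are a signal on a scaled read count, made with a single size factor for each library: 100% of values were whole multiples of 1 step per library, within 0.01. Per the submitters' processing notes, bcl2fastq and DESeq2 were used with genome build GRCm39; the aligner, the counter, the gene models and the strand setting were not given in the sources used here, so overlapping or near-identical genes are uncertain. Symbols, exon lengths and overlaps came from GENCODE vM21 on GRCm38, which matched 51633 gene IDs and left 279 unmatched. Values were used as log2(value + 1), keeping genes that reached 10 in 3 or more libraries (13865 of 25687 with any read, holding 99.9% of reads), so changes of low genes are understated.

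One limma 3.58.1 fit (lmFit, eBayes with trend, R 4.3.3) with 4 group means gave all changes, LCHADD minus WT, and any adjusted p with no other tool named, passing under 0.05. Alternatives were other added values, filters and scalings, edgeR 4.0.16, DESeq2 1.42.0 on the recovered reads, a replicate block, only the groups compared, and left-out libraries. The members, lists, pairs and motifs were chosen with earlier results of these data known. Every tested member is named; values in every library are given for the 12 members with the smallest adjusted p in the mean of both sexes, for pairs that passed and for up to 2 abundant members per role that did not pass. Of each other list, up to 4 that passed and 2 abundant ones that did not are given with their change, and any further ones named there were picked after their values were seen. A gene that this rule would name is not reported here. Depth was 15613668 to 23174936 reads per library. Promoters are from RefSeq on GRCm38.p6, and no coordinates were moved between builds.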

Additional observations from a re-analysis of the deposited data

How the results depend on the processing

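No call changed direction under the alternatives run. In the mean of both sexes 20 import genes passed, 18 to 22 with 1 library left out, and 17 of the 20 calls held in all 22 alternatives. In females 19 passed (33.8% of all tested genes), 14 with only the groups compared in the fit (24.8%), and 13, without WT female 3 (27.8%), to 20 with 1 library left out. In males 6 passed (15.5%), 12 with only the groups compared in the fit (24.1%), 13 without both WT female 3 and LCHADD female 2 (23.9%), and 2 to 13 with 1 library left out. The interaction had 0 in limma, 2 in DESeq2 and 0 to 2 with 1 library left out. Female against male in WT had 0, and 0 to 1 with 1 library left out. Leaving out a female library left the log2 changes in males as they were, such as 0.29 for Tomm70a. It acted on the male calls only through the shared estimate of the spread and the adjustment over all genes. The adjusted p of Tomm70a in males was 0.112, and 0.00575 without LCHADD female 2. The cause of the other shifts was not tested. No pairing of libraries by replicate number was seen (correlations of same-numbered deviations -0.054 to 0.031, with the best match in 1 of 6). This check cannot exclude a pairing. With the replicate block 19 genes passed in the mean, and 0 of the 8 related pairs passed in place of 4. That test of the ratios used sign flips of 6 library pairs, and its smallest adjusted p was 0.0833, with 3 unadjusted p under 0.05. So few flips keep the reachable p high after adjustment, so hardly any ratio could pass and nothing is concluded from this loss. The median change of all genes moved from -0.0019 to -0.011 with TMM and to 0.039 with scaling by nuclear reads. Reads of 12 libraries limit the low genes most, as in Timm10b.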
